A study of Mus musculus with 60 samples.

Results

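The anterior and intermediate lobes of the pituitary make the peptide hormones Gh (growth hormone), Prl (prolactin) and the products of Pomc (among them corticotropin), and the heterodimeric hormones built from the shared alpha subunit Cga with the beta subunit Tshb (thyrotropin), Fshb (follicle stimulating hormone) or Lhb (luteinizing hormone). Pitx1, Lhx3 and Pou1f1 are homeodomain transcription factors of pituitary development, with Pou1f1 needed for the cells that make Gh, Prl and Tshb. These 10 genes were followed over 60 arrays of pooled fetal mouse brain. They were taken by gene symbol, and 9 of the 10 had an array row of their own that named no other gene, out of 19938 genes named in this way. Pou1f1 had no such row and is given no value. Every one of the 9 genes was measured by a single transcript cluster, the array's unit of about 1 gene.

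The pituitary sits below the hypothalamus on a thin stalk, in a pocket of the skull base. In the mouse, Cga and Pomc are switched on early in pituitary development, Gh in the last days before birth, and most prolactin-making cells arise after birth. Pomc is also expressed by hypothalamic neurons, Pitx1 in the hindlimbs and jaw and Lhx3 in spinal motor neurons.

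Pregnant mice of strain background B6.129 were given chlorpyrifos oxon (CPO), which the body makes from the insecticide chlorpyrifos and which inhibits acetylcholinesterase, on 12 days (gestational days 6 to 17), and fetal brains were taken on day 18. Per the labels there were PON1-knockout mice (KO) at CPO 0, 0.50 and 0.75 mg per kg and day, and mice with the human PON1 transgene tgHuPON1Q192 (Q-tg), the transgene tgHuPON1R192 (R-tg) or neither (wild type, WT), each without CPO and at daily doses of 0.75 or 0.85 mg/kg. PON1 is the blood enzyme that hydrolyses CPO. Each of the 12 groups held 5 arrays, and an array held RNA pooled from the fetal brains of 1 dam, so the dam is the replicate. The promoter of the transgenes and the Pon1 alleles that the transgenic mice carry are not given in the sources used here.

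The 250 bases before the transcription start of 4 of these genes are shown because Pomc, Cga and Tshb correlated with Gh from pool to pool and Prl had an r near 0. Capitals mark matches, on either strand, to ATGNATA (a core of POU1F1 sites), TAATCC (bicoid class factors such as PITX1), TAATTA (LIM homeodomain factors such as LHX3) and the TATA box letters TATAAA. The sequences come from RefSeq, build GRCm38.p6, whose promoter table held 8 of the 10 genes, and each is written 5′ to 3′ on the gene's strand. The start used for Tshb is one inside the gene's span in RefSeq, not its outer end.
Pomc, chr12:3954695-3954944, plus strand: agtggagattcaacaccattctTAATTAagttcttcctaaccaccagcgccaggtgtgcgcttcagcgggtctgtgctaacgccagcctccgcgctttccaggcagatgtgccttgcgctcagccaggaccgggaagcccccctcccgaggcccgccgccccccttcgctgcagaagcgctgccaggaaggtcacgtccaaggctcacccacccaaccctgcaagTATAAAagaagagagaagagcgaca
Cga, chr4:34893529-34893778, plus strand: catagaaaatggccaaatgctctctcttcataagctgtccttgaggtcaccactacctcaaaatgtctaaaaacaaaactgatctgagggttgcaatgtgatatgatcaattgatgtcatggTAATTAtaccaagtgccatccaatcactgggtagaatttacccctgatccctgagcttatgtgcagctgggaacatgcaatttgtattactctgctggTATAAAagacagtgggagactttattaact
Tshb, chr3:102782715-102782964, minus strand: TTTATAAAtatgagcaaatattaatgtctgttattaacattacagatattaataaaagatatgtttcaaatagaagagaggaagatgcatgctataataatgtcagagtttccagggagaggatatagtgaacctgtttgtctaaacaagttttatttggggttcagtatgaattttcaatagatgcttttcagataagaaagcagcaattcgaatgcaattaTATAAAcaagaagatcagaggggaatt
Prl, chr13:27057320-27057569, plus strand: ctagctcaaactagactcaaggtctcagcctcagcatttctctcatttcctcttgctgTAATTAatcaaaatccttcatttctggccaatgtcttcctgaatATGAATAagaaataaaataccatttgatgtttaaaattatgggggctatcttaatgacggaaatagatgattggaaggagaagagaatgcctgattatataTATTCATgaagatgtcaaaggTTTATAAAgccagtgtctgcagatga
TATAAA began 25 bases before the start in Pomc, 30 in Cga, 27 in Tshb and 24 in Prl, where it overlapped a match on the other strand. The Tshb window also held it at 248 bases, overlapping a match on the other strand at 250. TAATTA was found in Pomc, Cga and Prl. ATGNATA was found at 2 places in Prl and not in the Pomc, Cga or Tshb window, and TAATCC in none of the 4. Among all 32851 promoter windows of 250 bases, 12.4% held TATAAA, 4.84% TAATTA, 7.92% ATGNATA and 6.25% TAATCC. These matches describe letters and do not show that a factor binds.

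Values are log2 signals normalized by the authors with RMA, so that 1 unit is a doubling. Any pair of the 60 arrays correlated between 0.9865 and 0.9984. The 8 measured brain markers (Tbr1, Tubb3, Slc17a7 and others) had mean signals of 8.54 to 13.28. Arrays differed in the lower end of their signal distribution, and the 25th percentile of an array, called its lower quartile here, ran from 5.92 to 6.26. Pon1 itself was at most 5.67 on 15 arrays and at least 9.72 on 45, and on 10 arrays this went against the genotype label (5 labelled KO were high and 5 with another label were low). Groups are therefore named by their labels, and the calls against Gh, the contrasts, the F test and the correlations over all pools were repeated without those 10 arrays. Most WT, Q-tg and R-tg arrays alike had high Pon1, so it cannot check the labels among these genotypes, or the doses. Tests between labelled groups, also without the 10 arrays, rest on labels that could not be checked in full.

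Gh varied far more between pools than any other of the 9 genes. Its signal ran from 6.42 to 10.73 with a median of 6.98, and its SD of 1.43 ranked 4 among 21789 tested transcript clusters, whose median SD was 0.11. Cga ran from 6.12 to 7.90 with a median of 6.62, and Pomc from 6.53 to 7.40 with a median of 6.84. Olfactory receptor genes, taken as silent in brain, gave 1035 rows, and 6.54, which the means of 95% of them did not exceed, served as the level below which a row was called dim. Gh was above it on 58 arrays, Pomc on 59, Cga on 39 and Lhb on 60, and the lowest values of Gh, Pomc and Cga lay below it. Some olfactory rows had means above this level too, so a signal above it does not by itself show expression. Lhb followed the lower quartile of the array (r = 0.87), and the 37 pools with Gh below 8 had a median Gh of 6.83.

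The other hormones and factors kept narrower ranges. Tshb lay between 4.81 and 5.76 with a median of 5.27, and Prl between 4.87 and 5.72 with a median of 5.38. Fshb lay between 5.59 and 6.35 with a median of 5.99. Those 3 genes were below the dim level on all 60 arrays, so their signals cannot be told apart from background by level. Lhb lay between 6.75 and 7.80 with a median of 7.35. Pitx1 lay between 6.25 and 6.97 with a median of 6.62, and Lhx3 between 6.39 and 7.06 with a median of 6.77. Levels of different genes come from different probes and are not compared with each other.

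Gh showed a low and a high range within every labelled genotype. In KO pools, in the order of their labelled replicates, Gh was 6.65, 10.02, 6.87, 6.65 and 9.78 at CPO 0, then 6.94, 10.21, 6.88, 8.12 and 9.22 at CPO 0.50, and 6.42, 9.47, 9.86, 6.71 and 6.97 at CPO 0.75. In Q-tg pools it was 8.84, 6.94, 10.43, 6.83 and 9.69 at CPO 0, then 6.90, 9.32, 10.26, 6.76 and 9.69 at CPO 0.75, and 10.21, 6.83, 6.81, 6.88 and 6.88 at CPO 0.85. Low pools near 7 and high pools above 8.8 stood side by side at every dose of both genotypes. In R-tg pools Gh was 10.73, 6.72, 6.98, 9.03 and 8.97 at CPO 0, then 6.76, 9.51, 10.18, 7.02 and 6.82 at CPO 0.75, and 6.79, 9.30, 6.98, 6.85 and 7.07 at CPO 0.85. In WT pools it was 6.79, 7.0, 6.71, 10.11 and 6.73 at CPO 0, then 6.75, 8.11, 6.51, 6.65 and 6.71 at CPO 0.75, and 10.06, 6.57, 7.0, 7.0 and 7.41 at CPO 0.85. Altogether 37 pools lay at 6.42 to 7.41, 21 at 8.84 to 10.73, and a pool each at 8.11 (WT at 0.75) and 8.12 (KO at 0.50). Gh above 8 was found in 2, 3 and 2 of 5 pools of KO at rising dose, in 3, 3 and 1 of Q-tg, in 3, 2 and 1 of R-tg, and in 1 pool at each dose of WT. The boundary of 8 was set after the values had been seen.

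Pomc was high in most of the pools where Gh was high. In KO pools Pomc was 6.71, 7.23, 6.71, 6.80 and 7.10 at CPO 0, then 6.81, 7.09, 6.78, 6.73 and 7.03 at CPO 0.50, and 6.66, 7.10, 6.96, 6.60 and 7.09 at CPO 0.75. In Q-tg pools it was 7.06, 6.90, 7.17, 6.84 and 7.13 at CPO 0, then 6.85, 7.19, 7.19, 6.75 and 7.17 at CPO 0.75, and 7.11, 6.80, 6.73, 6.77 and 6.89 at CPO 0.85. In these 30 pools the order of Pomc followed that of Gh with exceptions, such as KO replicate 5 at 0.75, with Pomc at 7.09 and Gh at 6.97. In R-tg pools Pomc was 7.40, 6.65, 6.75, 7.24 and 6.89 at CPO 0, then 6.78, 6.78, 7.19, 6.74 and 6.75 at CPO 0.75, and 6.59, 7.15, 7.05, 6.73 and 6.64 at CPO 0.85. In WT pools it was 6.86, 6.77, 6.89, 7.01 and 6.69 at CPO 0, then 6.63, 6.76, 6.53, 6.63 and 6.85 at CPO 0.75, and 7.21, 6.55, 6.85, 6.99 and 6.82 at CPO 0.85. The opposite exception was R-tg replicate 2 at 0.75, with Pomc at 6.78 and Gh at 9.51. Of the 20 pools with the highest Pomc, 17 were among the 20 with the highest Gh.

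Cga, the subunit shared by thyrotropin and the gonadotropins, behaved in the same way over a wider range. In KO pools Cga was 6.48, 7.41, 6.32, 6.74 and 7.14 at CPO 0, then 6.70, 7.09, 6.26, 6.50 and 6.62 at CPO 0.50, and 6.43, 6.75, 6.91, 6.40 and 6.57 at CPO 0.75. In Q-tg pools it was 7.02, 6.46, 7.30, 6.57 and 7.0 at CPO 0, then 6.58, 7.01, 7.90, 6.53 and 6.62 at CPO 0.75, and 7.10, 6.59, 6.47, 6.64 and 6.46 at CPO 0.85. The value of 7.90 was the highest Cga of all 60 arrays and came from a pool with Gh at 10.26, while Q-tg replicate 5 at 0.75 had Gh at 9.69 and Cga at 6.62. In R-tg pools Cga was 7.08, 6.45, 6.76, 6.94 and 6.85 at CPO 0, then 6.60, 6.91, 7.20, 6.84 and 6.56 at CPO 0.75, and 6.41, 7.16, 6.67, 6.39 and 6.67 at CPO 0.85. In WT pools it was 6.71, 6.44, 6.40, 6.93 and 6.36 at CPO 0, then 6.62, 6.46, 6.30, 6.12 and 6.46 at CPO 0.75, and 6.89, 6.26, 6.76, 6.61 and 6.76 at CPO 0.85. The top 20 of Cga also held 17 of the top 20 of Gh, against 11 for Tshb, 7 for Prl, 6 for Pitx1, 5 for Lhx3, 4 for Lhb and 3 for Fshb.

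**Figure D1:**
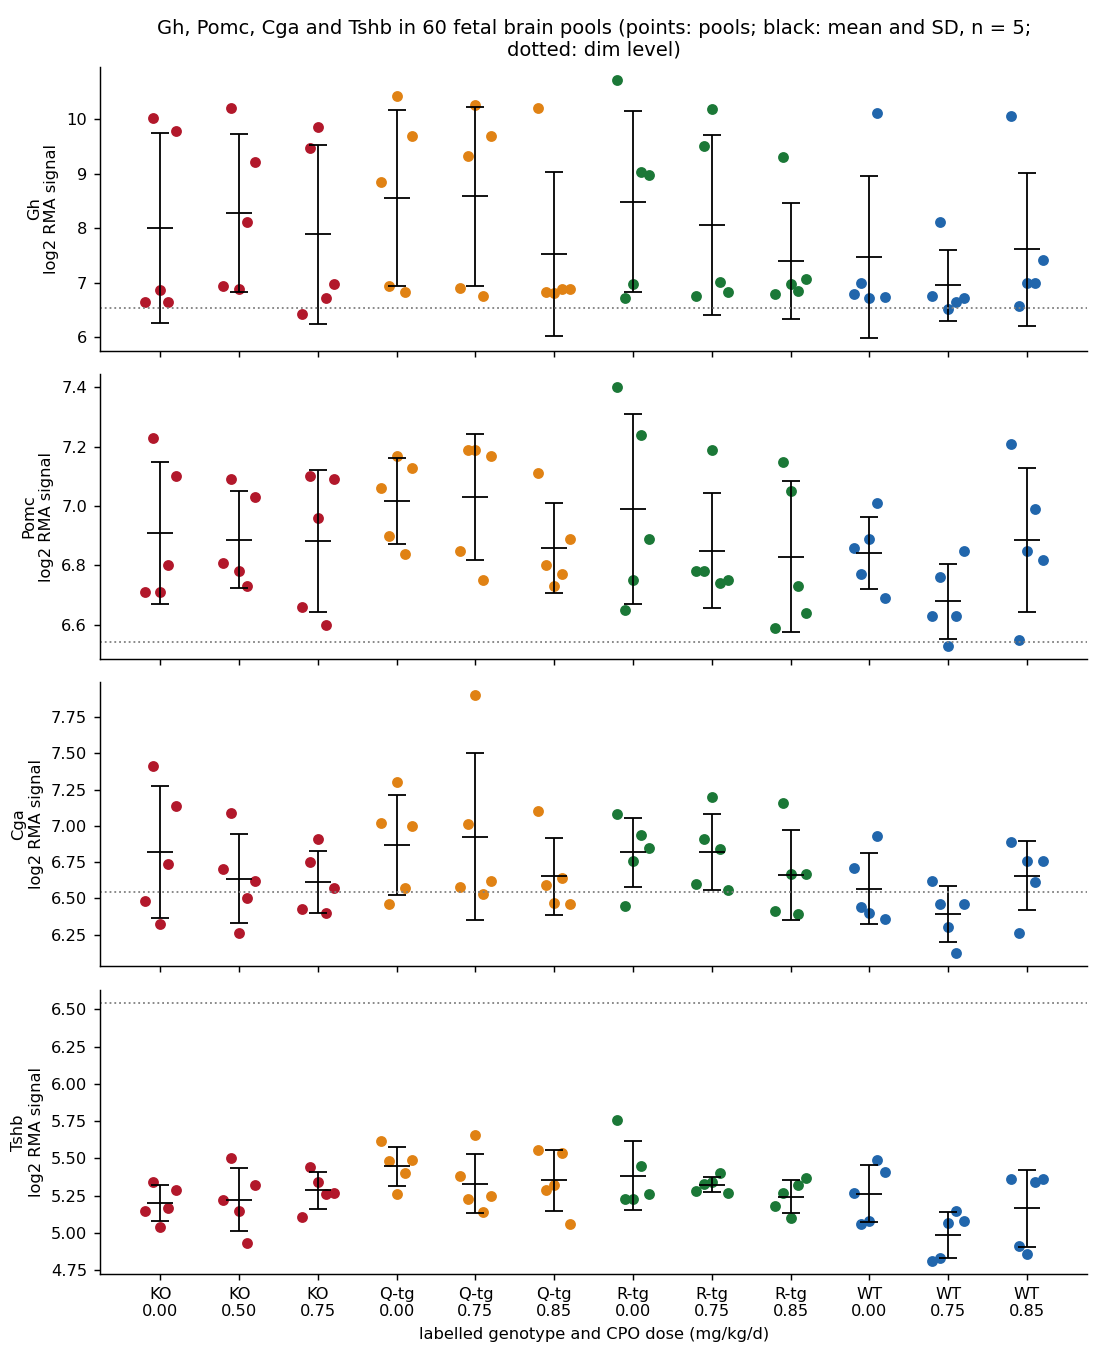
Log2 RMA signal (y axis) of Gh, Pomc, Cga and Tshb by labelled genotype and CPO dose in mg/kg/d (x axis); points are the 60 pools, black bars the group mean and SD (n = 5), and the dotted line is the dim level of 6.54. Gh splits into pools near 7 and pools above 8 in every group, and the groups overlap for each of the 4 genes.

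Pomc and Cga rose with Gh within the labelled groups, and they were the only transcript clusters called of 21788 tested (an adjusted p under 0.05, 0.00918% of those tested), or among 53 called with array weights. For 1 log2 unit of Gh, Pomc was higher by 0.113 (SE 0.0119) and Cga by 0.172 (SE 0.0182) log2 units, each with an adjusted p of 8.17e-09 (limma, Benjamini-Hochberg over 21788). These ranked 1 and 2 of all rows by p. An unadjusted p under 0.05 was reached by 2578 rows. Gene symbols chose the members without regard to signal, but they were proposed with earlier results of these arrays known.

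Tshb came next among the hormones, with a slope of 0.0565 (SE 0.0146, 95% interval 0.0273 to 0.0857). It ranked 26 by p, and its adjusted p of 0.249 in limma missed the threshold. Slopes of the other 5 genes had intervals that include 0. Pitx1 had 0.00354 (-0.0278 to 0.0349) and Lhx3 -0.00505 (-0.0324 to 0.0223). Prl had -0.0129 (-0.0502 to 0.0244), Lhb -0.0219 (-0.0584 to 0.0146) and Fshb -0.0226 (-0.0521 to 0.00695). The upper bounds of these 5 all lie below the slopes of Pomc and Cga. Prl and Fshb were below the dim level on all arrays, and different genes have different probes. The order of the slopes therefore does not rank the changes in RNA. The median slope over the 8 genes tested was -0.000752, against 0.00183 over all rows.

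**Figure D2:**
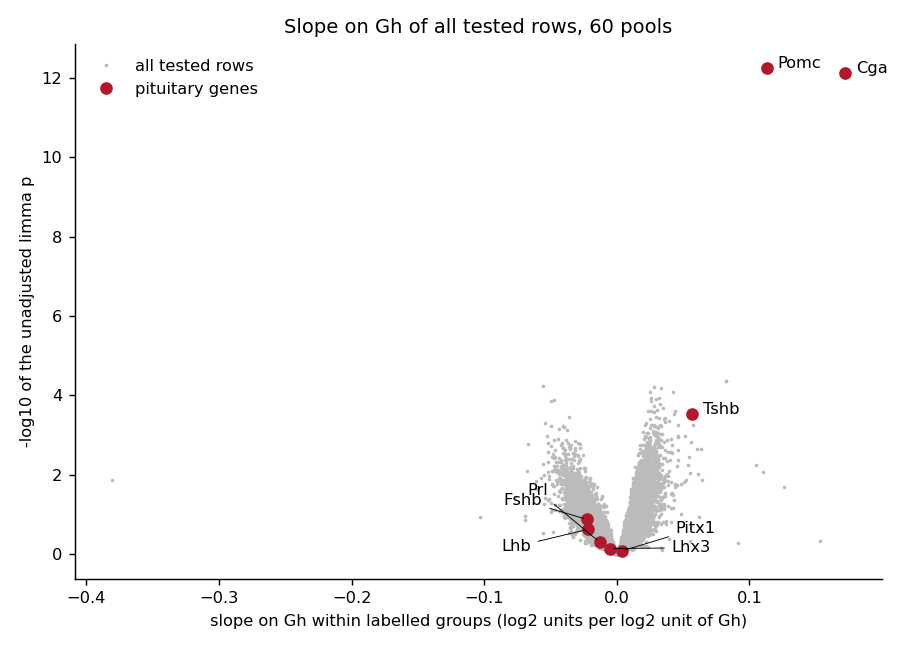
Slope of each transcript cluster on Gh within the labelled groups (x axis, log2 units per log2 unit of Gh) against -log10 of the unadjusted limma p (y axis); grey points are all 21788 tested rows and red points the pituitary genes. Pomc (0.113) and Cga (0.172) stand far above every other row, and Tshb (0.0565) lies at the upper edge of the rest.

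Across the 60 pools, Gh correlated with Pomc at r = 0.82 (Spearman's rho 0.79) and with Cga at r = 0.80 (rho 0.81), each with an adjusted permutation p of 3.6e-05 over 36 pairs of genes. That follows from an unadjusted p of 1e-05, the smallest that 100000 permutations can give. For Tshb, r was 0.51 (rho 0.54, adjusted permutation p 0.00011). Without the 2 arrays farthest from the median of Gh, r was 0.80 for Pomc, 0.79 for Cga and 0.48 for Tshb. Without the 10 arrays whose Pon1 went against the label it was 0.80 for Pomc, 0.75 for Cga and 0.50 for Tshb. Among the 21788 rows ordered by r with Gh, Pomc was number 1, Cga number 2 and Tshb number 7.

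Because Gh fell into a low and a high range, the relation was also taken within each. Among the 23 pools with Gh above 8, r was 0.69 for Pomc, 0.65 for Cga and 0.68 for Tshb, with adjusted permutation p of 0.0049, 0.0056 and 0.0049. The pools at 8.11 and 8.12 had the lowest Pomc (6.76 and 6.73), Cga (6.46 and 6.50) and Tshb (4.83 and 4.93) of these 23. Correlations within the high range were not computed without them. Among the 37 pools below 8, r was 0.49 for Pomc, 0.56 for Cga and 0.34 for Tshb (adjusted permutation p 0.0035, 0.00055 and 0.044). In that low range all 8 genes rose with Gh, Pitx1 at r = 0.64, Lhb at 0.56 and Lhx3 at 0.51 among them. Gh itself spanned only 6.42 to 7.41 there, and its r with the lower quartile of the array was 0.61, and -0.04 in the pools above 8.

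After the lower quartile was regressed out, the high and low ranges parted. Above 8, r with Gh was 0.71 for Pomc, 0.67 for Cga and 0.69 for Tshb (adjusted permutation p 0.0038 each). Below 8 it was 0.11 for Pomc, 0.22 for Cga and 0.029 for Tshb, and none of the 8 genes passed (lowest adjusted permutation p 0.324, for Pitx1). When a term for the pools above 8 was added to the model across all rows, none was called (0%, with 656 at an unadjusted p under 0.05). The slopes were then 0.165 for Pomc, 0.278 for Cga and 0.185 for Tshb, with adjusted p of 0.53, 0.434 and 0.53 in limma. Pools at 8.11 and 8.12 counted as above 8 in these correlations and slopes, which were not repeated without those pools.

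**Figure D3:**
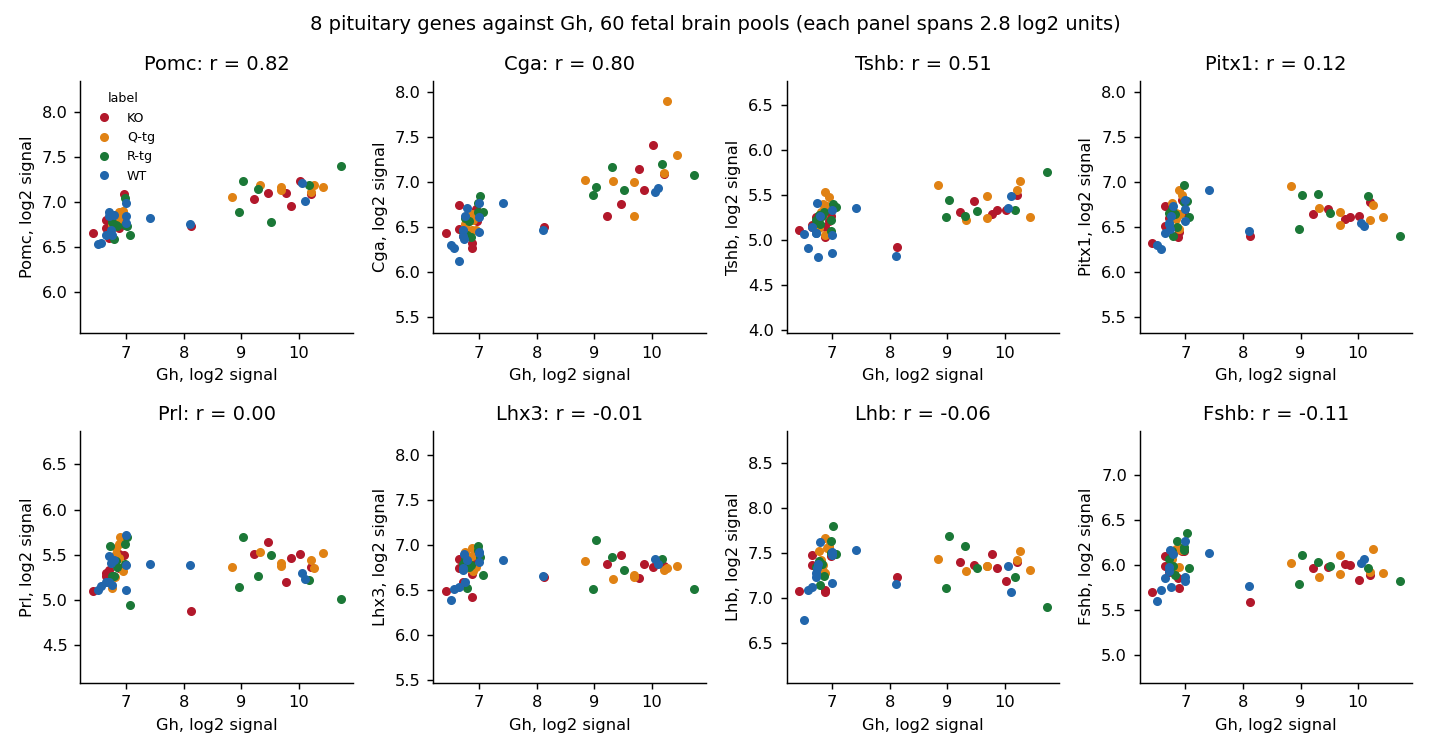
Log2 signal of 8 pituitary genes (y axis, 2.8 log2 units in every panel) against the log2 signal of Gh (x axis) in the same pool; colours give the labelled genotype, and r is Pearson's over 60 pools. Pomc (r = 0.82) and Cga (r = 0.80) climb from the low to the high pools of Gh, Tshb does so less steeply, and the other 5 genes have r between -0.11 and 0.12.

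The same 3 genes were called when another of them took the place of Gh. With Cga in the place of Gh, the 2 rows called of 21788 (0.00918%) were Gh (slope 3.71, adjusted p 1.1e-08) and Pomc (slope 0.475, adjusted p 8.75e-06, limma). With Pomc in that place, the 2 called (0.00918%) were Gh and Cga. The row closest to Tshb by r was Cga (0.55), followed at places 4 and 14 by Pomc and Gh, although Tshb was below the dim level on all arrays. Once Gh and the group means were taken out, the remaining correlation was 0.24 between Pomc and Cga, 0.21 between Cga and Tshb and 0.16 between Pomc and Tshb. In a pool of whole brains, fewer hormone-making cells and less hormone RNA per cell cannot be told apart.

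Fshb, the beta subunit of follicle stimulating hormone, had r = -0.11 with Gh over all pools (adjusted permutation p 0.445). Among the pools with Gh above 8 its r was 0.38 (adjusted permutation p 0.13), and 0.59 once the lower quartile was regressed out (adjusted permutation p 0.0194). In the same setting Fshb and Tshb correlated at 0.68 (adjusted permutation p 0.0038). The pools at Gh 8.11 and 8.12 had the lowest Fshb (5.77 and 5.59) and Tshb (4.83 and 4.93) of that range. Neither correlation was computed without those pools. Both rows were below the dim level on all arrays. This range and setting were chosen after the data had been seen.

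A separate block was formed by Prl, Fshb, Lhb, Pitx1 and Lhx3. All 10 pairs among them passed, with r of 0.45 to 0.81 (median 0.60, adjusted permutation p of 0.00078 or less). Lhb and Pitx1 were the closest pair (0.81), then Pitx1 and Lhx3 (0.73) and Lhb and Lhx3 (0.72). The 6 pairs among Gh, Pomc, Cga and Tshb had r of 0.51 to 0.82 (median 0.65), and the 20 pairs between both blocks -0.11 to 0.44 (median 0.21, 5 passing).

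The block of 5 followed the lower quartile of the array. Their r with it was 0.87 for Lhb, 0.82 for Lhx3, 0.78 for Pitx1, 0.77 for Fshb and 0.64 for Prl. For the hormones that moved with Gh it was 0.27 for Tshb, 0.20 for Pomc and 0.18 for Cga, and for Gh itself -0.13. Among all 6178 dim rows of the array the median r with the lower quartile was 0.54, and among 15611 rows above the dim level -0.28. When Lhb took the place of Gh in the model, 13320 of 21788 rows were called (61.1%), with Prl, Fshb, Pitx1 and Lhx3 among them. With the lower quartile as covariate, no row was called against Lhb (0%, with 3925 at an unadjusted p under 0.05).

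**Figure D4:**
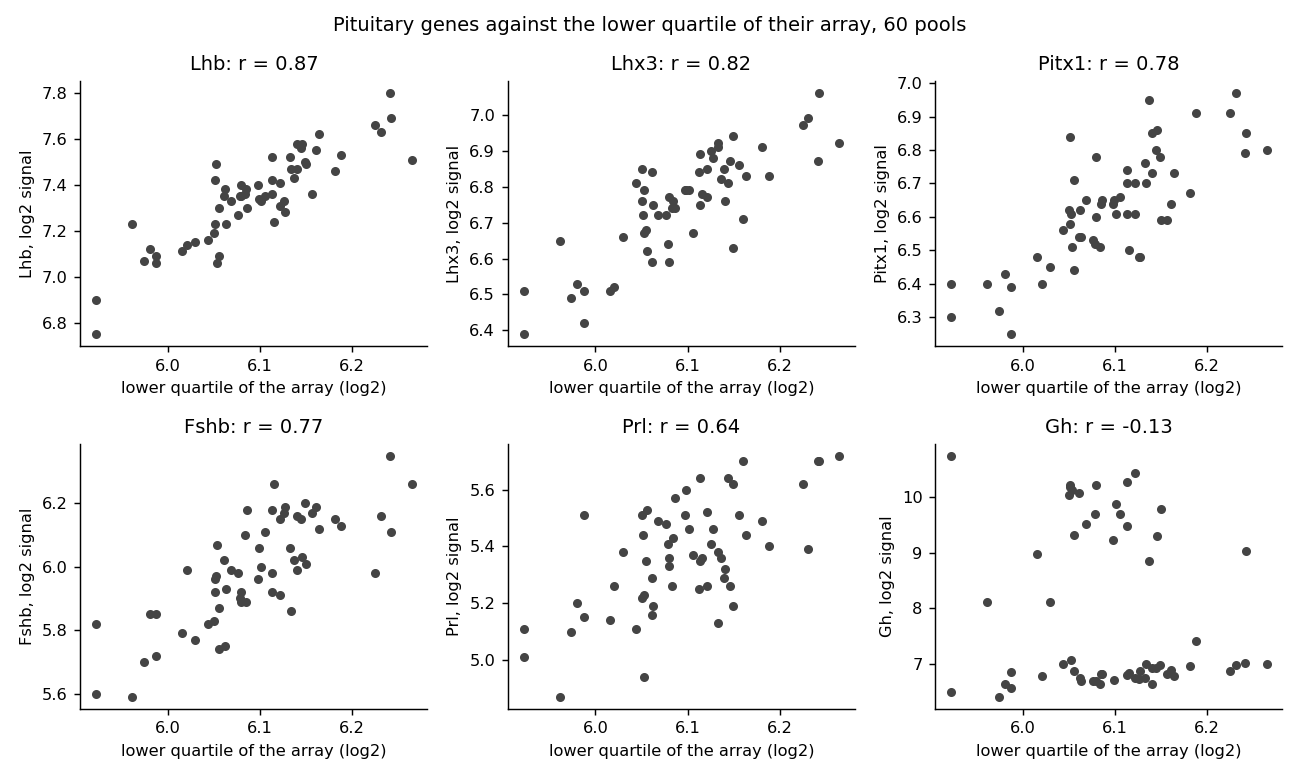
Log2 signal of Lhb, Lhx3, Pitx1, Fshb, Prl and Gh (y axes) against the lower quartile of the signals of the same array (x axis, log2) in 60 pools, with Pearson's r. Lhb (0.87) to Prl (0.64) rise with the lower quartile, and Gh (-0.13) does not.

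Regressing out the lower quartile left the Gh block in place and took the other apart. The 6 pairs of Gh, Pomc, Cga and Tshb then had r of 0.52 to 0.87, all passing. The 10 pairs of Prl, Fshb, Lhb, Pitx1 and Lhx3 had r of -0.23 to 0.42 (median -0.04), and 1 passed, Lhb with Pitx1 (r = 0.42, adjusted permutation p 0.0032). Pitx1, the factor shared by all pituitary lineages, then correlated with Cga at 0.48 (adjusted permutation p 0.00077), against 0.44 in the values as deposited. Its r with Gh was then 0.36 (adjusted permutation p 0.0184), against 0.12 as deposited. With the lower quartile removed, Pitx1 and Gh had r = 0.09 among pools with Gh above 8 (adjusted permutation p 0.926). Among pools below 8 their r was 0.31 (adjusted permutation p 0.324). In the model across all rows with this covariate, Pomc (0.122, adjusted p 2.24e-11) and Cga (0.185, adjusted p 5.3e-11) were again the 2 rows called (0.00918%). Tshb had a slope of 0.0625 (adjusted p 0.246) and Pitx1 0.0232 (adjusted p 0.487, limma).

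**Figure D5:**
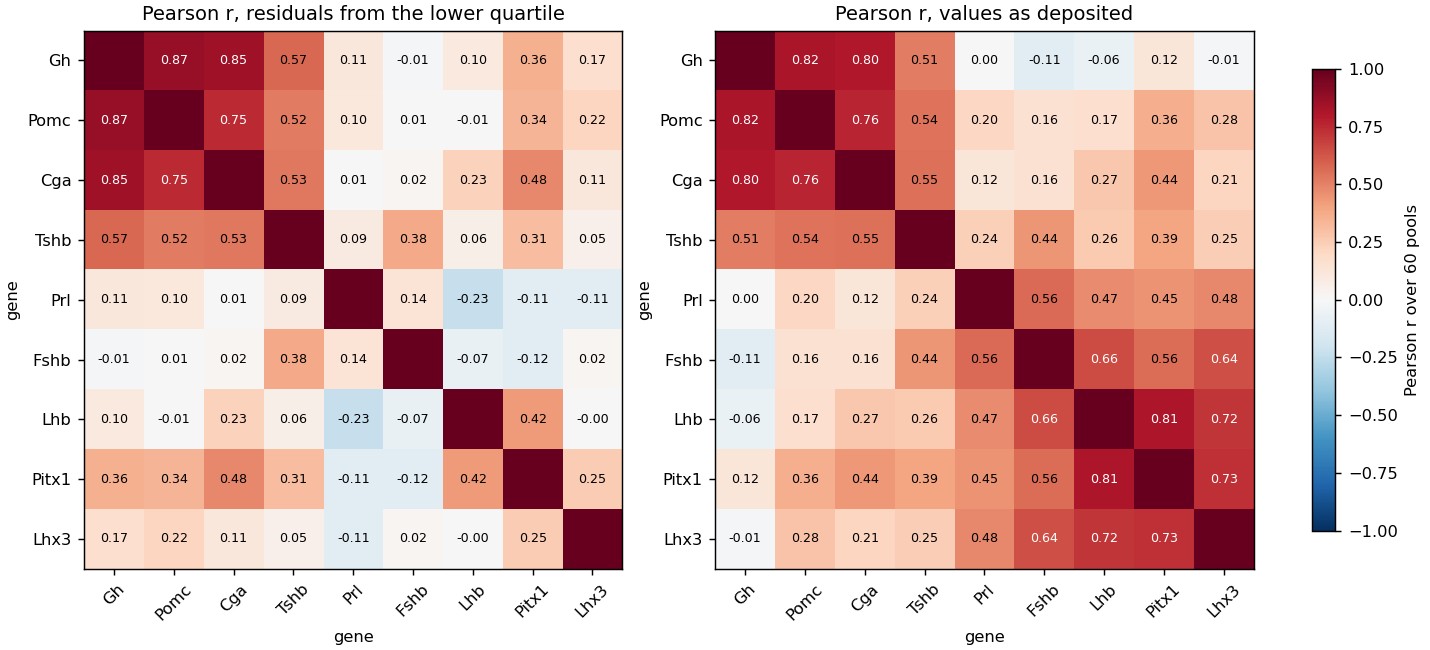
Pearson's r between 9 pituitary genes over 60 pools (colour scale from -1 to 1), on residuals from the lower quartile of the array (left) and on the values as deposited (right); rows and columns are genes. Gh, Pomc, Cga and Tshb keep r of 0.52 to 0.87 on the left, where the block of Prl, Fshb, Lhb, Pitx1 and Lhx3 seen on the right (0.45 to 0.81) falls to -0.23 to 0.42.

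Genes outside the pituitary set correlated less closely with Gh than Pomc and Cga did. The closest row above the dim level was Psmd8, a subunit of the proteasome (r = 0.54 over 60 pools), then Snu13 (0.54 and 0.51 from its pair of rows), Pnck (0.52), Sharpin (0.52), Tubg2 (0.50), Tfpt (0.49), Tle5, Pde9a and Ptov1 (0.48 each). All of them had a negative r with the lower quartile of the array, from -0.17 (Tfpt) to -0.62 (Pde9a). Among rows above the dim level, with predicted genes left out, the lowest r with Gh belonged to Phip and Fa2h (-0.41 each), Hook3 and Birc3 (-0.40 each) and Gpatch8 (-0.37). None of these 15 rows was called in the model.

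A list of 26 further pituitary genes had 23 that were measured, and none was called against Gh, with 2 of 21788 rows called in all. Its slopes ran from -0.0318 (Lhx4, a relative of Lhx3) to 0.0277 (Dlk1, a membrane protein also found in Gh-making cells), with a median of 0.00292. The median r of the list with Gh was 0.05, with 13 of 23 positive. Dlk1 had the highest r (0.37, adjusted p 0.366, limma), then Tbx19, the factor of Pomc-making cells (0.27). Drd2, a dopamine receptor, had 0.24 and Rxrg 0.23, and the lowest were Lhx4 (-0.23) and Gnrhr (-0.21). Tbx19 (mean 6.32) and Gnrhr (mean 5.12) lay below the dim level. The receptors for hypothalamic hormones had slopes of -0.00194 (Ghrhr), -0.0208 (Gnrhr), 0.0208 (Trhr) and -0.00992 (Crhr1). Secretory granule genes, which neurons express as well, had 0.0126 (Chga), 0.00292 (Chgb) and 0.0134 (Scg2). The lower quartile moved with several of them, with r of 0.86 for Ghrhr and 0.71 for Tbx19.

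Genes of the hypothalamus and of other tissues did not pass the test either. Pomc is also a gene of hypothalamic neurons, and of 19 other hypothalamic genes measured none was called, with a median slope of 7.49e-05. Fezf1 had the highest slope of that list, 0.0325 (adjusted p 0.33, limma). The median slope was -0.0331 for 13 hindbrain and spinal cord genes (Hoxb5 -0.0767, Slc6a5 -0.0693), -0.0237 for 4 erythroid genes and -0.0147 for 3 pineal genes. It was 0.0077 for 8 meningeal genes (Ptgds with r = 0.38 with Gh, a list median r of -0.02 and 3 of 8 positive), 0.00893 for 8 brain markers, 0.00241 for 5 bone genes, -0.00351 for 5 nasal mucosa genes, -0.00594 for 6 sensory ganglion genes and -0.00905 for 9 skeletal muscle genes. None of these genes was called, and the part of these tissues in the Gh range was not tested further.

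No pituitary gene was called between the labelled groups. In limma's F test over the 12 groups none of the members was called, and none of 21789 rows (0%), while 1054 rows had an unadjusted p under 0.05. Tshb was among these (unadjusted p 0.0128, adjusted p 0.95, limma). The adjusted p of the 9 genes ran from 0.95 to 0.974. Labelled groups held 12.3% of the variance of Gh and 35.0% of that of Tshb, against a median of 18.3% over all rows. Gh varied within groups with an SD of 1.49 on the log2 scale.

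Group means of Gh were highest in Q-tg at CPO 0.75 (8.59 ± 1.64, SD, n = 5) and lowest in WT at 0.75 (6.95 ± 0.66). Neighbours in that order differed by at most 0.45, less than the SD within any group. Pomc (7.03 ± 0.21) and Cga (6.93 ± 0.58) also had their highest means in Q-tg at 0.75, and their lowest in WT at 0.75 (6.68 ± 0.13 and 6.39 ± 0.19). Neighbouring means of Pomc differed by more than the smaller of their SDs in 1 place, and those of Cga in none. Tshb had its highest mean in Q-tg at 0 (5.45 ± 0.13) and its lowest in WT at 0.75 (4.99 ± 0.16).

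WT at CPO 0.75 had the lowest mean of the 12 groups for all 9 genes. The same held for 44.0% of the 9700 tested rows of similar mean signal. The lower quartile of the arrays averaged 6.01 ± 0.06 in this group (SD, n = 5), and 6.07 to 6.13 in the other 11 groups.

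The effect of CPO was tested in 8 contrasts of a dose against dose 0, and with averages, genotype differences and differences of response in 21 contrasts. None of the 189 tests of the 9 genes was called, against 1 of 457569 tests over all rows (0.000219%). That row was Ell2, in the difference of the response at 0.75 between R-tg and WT (0.00459% of the rows of that contrast). The smallest adjusted p of a pituitary gene was 0.333, and 7 of the 189 had an unadjusted p under 0.05 (limma). Over all rows, 21119 of the 457569 tests did. Each of the 7 came from a contrast that used WT at 0.75. Gh differed by -1.09 to 0.28 log2 units between a CPO dose and dose 0, with an SE of 0.90 in each. Cga differed by -0.22 to 0.09 (SE 0.19) and Pomc by -0.16 to 0.04 (SE 0.13). With these errors, a difference in Gh of 1 log2 unit was not detectable.

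The smallest p-values of a dose contrast were in WT at 0.75 against 0, where no row was called (0%, with 2216 at an unadjusted p under 0.05). Tshb was 4.81, 4.83, 5.07, 5.15 and 5.08 in WT at 0.75, and 5.27, 5.06, 5.08, 5.49 and 5.41 in WT at 0, which overlap. The difference was -0.28 (SE 0.11, adjusted p 0.456, limma). Lhx3 was 6.59, 6.66, 6.39, 6.53 and 6.75 in WT at 0.75, and 6.83, 6.81, 6.72, 6.79 and 6.90 in WT at 0, again with an overlap. Its difference was -0.22 (SE 0.09, adjusted p 0.46), and that of Fshb -0.25 (SE 0.10, adjusted p 0.456, limma). The lower quartile averaged 6.01 ± 0.06 in WT at 0.75 and 6.09 ± 0.05 in WT at 0 (SD, n = 5 each), and its part in these differences was not tested beyond the covariate fit, in which no pituitary gene was called.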

How the data were processed

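RNA of fetal brain pools was hybridised to Affymetrix Mouse Gene 1.0 ST arrays. The deposited log2 values were made by the authors with RMA (oligo 1.22.0, R 2.15.1, per the submitters' processing notes and the readme), and were used as deposited. Of 28858 rows, 21789 with exactly 1 gene symbol in the platform annotation were tested, 1621 had several symbols and 5448 none. Each gene was taken at its row of highest mean. limma 3.58.1 (R 4.3.3) fitted the slope of every row on Gh with the 12 labelled groups as terms, and 21 contrasts and an F test without Gh. Tests were 2-sided, with Benjamini-Hochberg adjustment over all rows and a threshold of 0.05. Correlations used 100000 permutations and adjustment over 36 pairs. The number of arrays limits the precision. Members, gene lists and tests were chosen with earlier results of these data known.

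Named besides the members were the 10 rows of highest and 5 of lowest r with Gh (above the dim level, without predicted or small RNA genes) and, of each list, at most the 4 genes of largest absolute r (12 for the pituitary list). Ell2, Slc6a5, Ghrhr and Chgb, outside that order, were chosen after their values were seen. On simulated data with 50 changed rows of each size, the slope test over 21788 rows recovered 72% of slopes of 0.05, 98% of 0.1 and 100% of 0.2 and 0.4. It also called 13 unchanged rows. The contrast of WT at 0.75 against 0 over 21789 rows recovered 52% of differences of 0.25, 94% of 0.5 and 100% of 1 and 2, with 11 unchanged rows called. These shares depend on the number of changed rows and are not the power in the real data. There, Tshb with a slope of 0.0565 was not called. Alternatives were a robust prior, array weights, a filter on dim rows, all rows, median centring, a replicate block, the lower quartile as covariate, no group terms, Cga in the place of Gh, leaving out the 10 arrays with Pon1 against the label, and leaving out each array.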

Additional observations from a re-analysis of the deposited data

Results flagged for a closer look

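In 10 of 108 checks of a gene in a group of 5 pools, 1 pool lay farther from the others than Dixon's 95% critical value of 0.71 allows, where chance gives about 1 in 20. Gh was 10.21 in Q-tg replicate 1 at CPO 0.85 (the other pools 6.81 to 6.88) and 9.30 in R-tg replicate 2 at 0.85 (others 6.79 to 7.07). It was 10.11 in WT replicate 4 at 0 (others 6.71 to 7.0), 8.11 in WT replicate 2 at 0.75 (others 6.51 to 6.75) and 10.06 in WT replicate 1 at 0.85 (others 6.57 to 7.41). These are the 5 groups in which a single pool had Gh above 8. Cga was 7.10 in the same Q-tg pool (others 6.46 to 6.64), and Pomc was 7.19 in R-tg replicate 3 at 0.75 (others 6.74 to 6.78), a pool with Gh at 10.18. Low values were found for Prl, at 4.94 in R-tg replicate 5 at 0.85 (others 5.26 to 5.39), for Pitx1, at 6.32 in KO replicate 1 at 0.75 (others 6.60 to 6.70), and for Lhx3, at 6.51 in WT replicate 2 at 0.85 (others 6.83 to 6.92). The lower quartile of the array was 6.05, 5.97 and 5.99 in those last 3 pools.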

How the results depend on the processing

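Pomc and Cga were called against Gh under every alternative that kept Gh as the anchor except 1, and with Cga as the anchor the 2 calls were Gh and Pomc. A term for the pools with Gh above 8, added after seeing the data, left 0 members and 0 transcript clusters called, with larger slopes for Pomc, Cga and Tshb. Array weights called 53 transcript clusters. Leaving out each array in turn gave 2 to 4, with 4 without R-tg replicate 5 at 0.85 and without WT replicate 4 at 0, and 2 to 2 members. No member was called between labelled groups by the contrasts or the F test under any alternative, with 0 to 0 when each array was left out.

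The 1 transcript cluster called in the 21 contrasts became 0 with a robust prior, median centring, the replicate block or the median of the olfactory rows as covariate. It became 163 with array weights, 2 with the dim filter, 9 with all rows, 3 with the lower quartile as covariate, 30 without the 10 arrays with Pon1 against the label, and 0 to 26 when single arrays were left out (26 without R-tg replicate 5 at 0.85). The replicate number did not pair the arrays: deviations of arrays with the same number correlated at -0.0094 on average, against 0.0026 for others, and 8 of 60 arrays correlated best with their own number.

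Leaving out each array gave r with Gh of 0.80 to 0.84 for Pomc, 0.79 to 0.82 for Cga, 0.47 to 0.54 for Tshb, 0.09 to 0.17 for Pitx1, -0.0259 to 0.0691 for Prl, -0.0543 to 0.052 for Lhx3, -0.1266 to 0.015 for Lhb and -0.16 to -0.08 for Fshb. The near-zero correlations of Prl, Fshb, Lhb and Lhx3 changed sign under several settings. Those of Pitx1, Pomc, Cga and Tshb kept their sign, and the values given for them below changed in size. Spearman's rho was 0.0082 for Fshb, 0.0964 for Lhb and 0.0926 for Lhx3. For Prl, r was -0.0973 on residuals from group means, -0.1099 with the replicate block and -0.0857 without the Pon1 arrays. Without the 2 farthest arrays it was 0.0243 for Lhb and 0.0511 for Lhx3. On residuals from the lower quartile it was 0.0996 for Lhb, 0.1693 for Lhx3 and 0.3553 for Pitx1, and with group means also removed 0.0477, 0.2225 and 0.3198 for the same genes. Above Gh 8 it was 0.3789 for Fshb, 0.003 for Lhx3 and 0.0387 for Pitx1, and with the lower quartile removed 0.5868, 0.0428 and 0.0943. Below Gh 8 it was 0.3655 for Prl, 0.4898 for Fshb, 0.5643 for Lhb, 0.644 for Pitx1 and 0.5125 for Lhx3. With the lower quartile removed there, it was -0.0433 for Prl, 0.1104 for Pomc, 0.2199 for Cga, 0.0294 for Tshb, 0.0272 for Fshb and 0.0755 for Lhb.

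Separate clusters of Gh were to be called at a gap of over 1 log2 unit with at least 6 arrays on each side. The widest gap was 0.72, so that fit was not run as planned and the boundary of 8 was used. A row below the dim level limits what can be said of Tshb, Prl and Fshb. Causes of these changes were not tested.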
